A study of Mus musculus with 14 samples.

Results

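The Usp genes encode the ubiquitin-specific proteases, and they were taken from the count table of 2-cell mouse embryos by symbol, as every gene named Usp followed by a number, with or without a closing x. This rule found 49 genes of the 56923 in the table. It left out 11 other genes whose names begin with Usp, which are Usp6nl, Usp9y, Uspl1, the Usp17l copies and antisense genes. All 49 were matched by gene ID to GENCODE release M39 on GRCm39, the assembly that is also called mm39, and all 49 are protein-coding there.

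RNA-seq was performed on 14 libraries of ICR mouse embryos in 7 conditions, with 2 libraries per condition and 5 embryos per library. Early 2-cell embryos, taken 30 h after hCG, came from G&N medium, which is mKSOM with 5 µM Gne140, an inhibitor of LDHA and LDHB, 50 µM NMN and 10 mM lactate, and from G&N-L medium, which holds the same Gne140 and NMN and no lactate. Late 2-cell embryos, taken 54 h after hCG, came from G&N medium, from G&N-L medium, from G&N-L medium after injection of 1 mM Lac-CoA into the zygote, and, with no inhibitor named in the labels, from zygotes injected with H3 mRNA carrying the H3K18R mutation and from a group labelled WT. The methods describe WT as embryos given WT H3 mRNA. These media are those of the sample titles. For the early libraries the treatment labels read otherwise, since those titled G&N are labelled with Gne140 alone, and those titled G&N-L with Gne140 and NMN and no mention that lactate was absent. By the titles the early groups differ in lactate and by the treatment labels in NMN, so the presence of NMN and of lactate in the early groups is in doubt, while titles and labels of the late groups give NMN in both arms. The embryos of each library were pooled, so fewer cells of a kind and less RNA per cell cannot be told apart.

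A ubiquitin-specific protease cuts ubiquitin from a protein and so can spare that protein from the proteasome or reverse a ubiquitin signal, such as the one carried by histones H2A and H2B. The 2-cell embryo of the mouse starts with RNA stored in the oocyte, destroys much of it, and switches on its own genome in a minor wave and then a major wave at the late 2-cell stage. A gene of the family can therefore be present as stored maternal RNA, as new zygotic RNA, or as both.

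Library totals ran from 20350427 to 61275465 counts, and a count of 0 allows up to 3 counts, or 0.0589 to 0.144 CPM (counts scaled to the library size), a limit for counting error only, because PCR copies of a molecule carry no identifier and were counted apart. The 10 oocyte markers (such as Zp3, Gdf9 and Nlrp5) were all detected in every library and summed to 19648 to 26227 CPM in early libraries, 12937 and 14888 in late G&N, 16621 and 19004 in late G&N-L, 14081 and 9775 with Lac-CoA, 3953 and 8144 in H3K18R, and 3559 and 3670 in WT. Btg4 dominated these sums, with 16474 and 17229 CPM in early G&N. In late WT against early G&N 9 of the 10 were lower. The other, Zp3, was higher, at 65.2 and 31.0 CPM in early G&N and 115 and 157 CPM in WT. The 10 late 2-cell markers (such as Zscan4c and Zfp352) summed to 230 to 410 CPM in early and 2212 to 4453 CPM in late libraries. In late WT against early G&N 9 of these 10 were higher. The other, Sp110, was lower, at 177 and 128 CPM in early G&N and 70.6 and 76.2 CPM in WT. The 15 cumulus cell markers summed to only 11.4 to 42.6 CPM, with 7 to 12 of them at 0 counts in each library. H3c1, an H3 gene, had 43643 and 83390 counts in the libraries labelled H3K18R and 4 and 3 counts in those labelled WT, although both groups were described as injected with H3 mRNA. The libraries labelled WT thus lay within the 0 to 66 counts of the 10 libraries without H3 injection, and H3c1 shows no sign of injected H3 mRNA in them.

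The Usp genes together took 3812 to 4756 CPM in each of the 14 libraries, so their sum changed little while its makeup changed. Between 40 and 49 of them had at least 10 counts in a library. Compared per kilobase of exon, which is the scale on which genes of unequal length can be ranked, the highest mean levels over the 14 libraries were 50.6 CPM per kilobase for Usp16, 44.7 for Usp1 and 34.1 for Usp37. Usp16, which removes ubiquitin from histone H2A, had 37.2 and 23.0 CPM per kilobase in early G&N and 66.1 and 69.5 in late WT. Usp37, a protease of the cell cycle that acts on cyclin A, varied little, from 360.0 and 356 CPM in early G&N to 518 and 441 CPM in late WT, with a log2 fold change of 0.34 (SE 0.22). At the other end, Usp40, Usp18 and Usp35 each had 0 counts in some libraries and at most 150 counts in any.

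**Figure D1:**
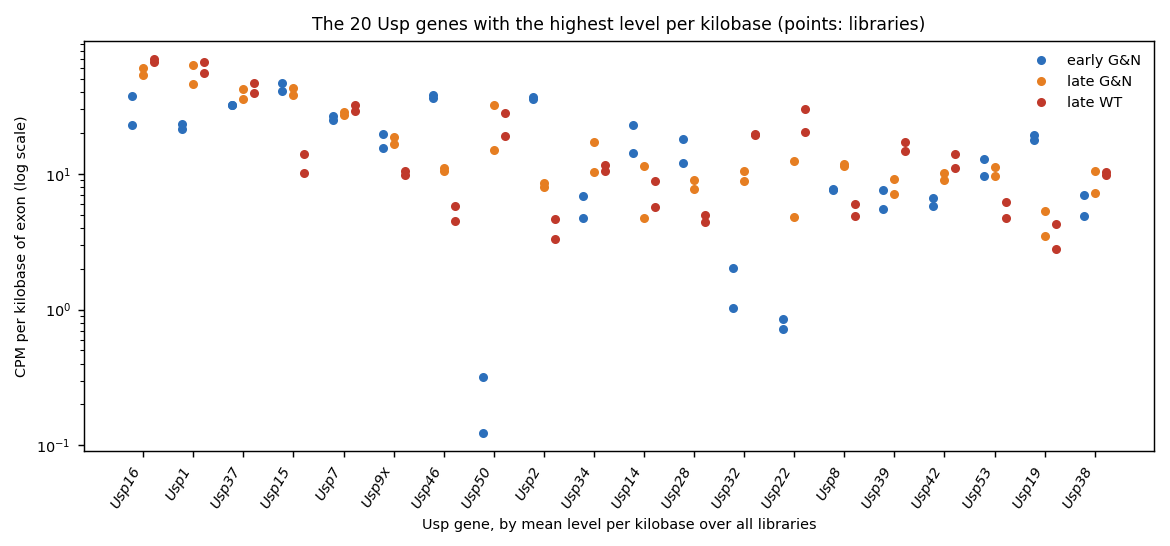
CPM per kilobase of exon on a log axis for the 20 Usp genes with the highest mean level per kilobase, 1 point per library, in early G&N, late G&N and late WT embryos. Usp16, Usp1, Usp37 and Usp15 stand highest, and Usp50, Usp22 and Usp32 show the widest gap between early and late libraries.

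To separate zygotic from maternal members, each gene was classed in late WT against early G&N embryos by edgeR's quasi-likelihood test, as rising or falling where the Benjamini-Hochberg adjusted p was under 0.05 and the log2 fold change at least 1 in size. By this rule 9 Usp genes were rising, 10 were falling and 30 were neither, and Usp18 and Usp35 among the last were too low to be tested. Of the 47 tested, 19.1% were rising and 21.3% falling, beside 20.7% and 18.6% of all 19072 genes tested, so the family was divided much as the whole table was. The classes are a description, since these libraries chose them, and the 2 groups differed in stage and medium, which cannot be told apart. Whether the libraries labelled WT also differed by an injection is in doubt from their H3c1 counts. Leaving out 1 library gave as few as 4 rising and 5 falling genes, both without the second WT library, beside 5 rising and 6 falling genes without the first WT library and 6 falling genes without the first early G&N library.

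The 9 rising genes included Usp22, Usp16 and Usp36, which act on histone H2A or H2B. Usp22, the protease of the SAGA coactivator complex that acts on histone H2B, was at 3.57 and 4.19 CPM in the early G&N libraries and at 148 and 101 CPM in late WT. Usp50 had the largest change of the family, from 1.24 and 0.478 to 73.9 and 108 CPM, a log2 fold change of 6.68 (SE 0.61). Usp50 is 1 of 4 members listed here as lacking protease activity. Usp32, a protease of the Golgi membrane, went from 16.6 and 8.44 to 159 and 162 CPM. Usp50 and Usp22 were low but detected in all 4 early libraries, at 4.19 CPM or less. They had 6 to 69 counts of Usp50 and 20 to 184 of Usp22, while Usp32 stood higher there, at 4.99 to 17.5 CPM. Usp16 and Usp1 were instead abundant at both stages, with Usp16 at 409 and 253 against 728 and 765 CPM. Usp1, which with Wdr48 acts on Fancd2 and Pcna in DNA repair, was at 132 and 143 against 339.6 and 409 CPM. Usp39, a splicing protein that keeps the fold of the family but lacks protease activity, was at 42.2 and 30.7 against 81.6 and 94.9 CPM. In each of these genes both WT libraries stood above both early G&N libraries. So they did in all 3953 genes of the rising class, which these libraries chose. The imprinted Usp29, expressed from the paternal allele, was at 14.9 and 14.2 against 91.9 and 99.9 CPM, and Usp36, a nucleolar protease, and Usp33 had log2 fold changes of 3.51 and 1.56.

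The 10 falling genes were led in abundance by Usp15, a regulator of TGF-beta signalling, at 868 and 993 CPM in early G&N and 299.8 and 216 CPM in late WT. Usp2, which acts on Mdm2 and cyclin D1, was at 338 and 329 against 42.7 and 30.6 CPM, and Usp46, which works with Wdr48 and Wdr20, at 383 and 408 against 62.1 and 47.8 CPM. All 3 were lower in late WT, by 3.83-fold, 9.60-fold and 7.62-fold. Usp53 was at 207 and 153 against 98.9 and 75.6 CPM. Usp28, which binds 53BP1 and stabilises Myc, was at 150.2 and 225 against 61.6 and 54.5 CPM. Usp14, the protease carried by the proteasome, was at 209 and 131 against 81.3 and 51.9 CPM. In each of these 6 genes both early G&N libraries stood above both late WT libraries. So they did in all 3541 genes of the falling class, which these libraries chose. The other falling genes were Usp3, a histone H2A protease, Usp19, anchored in the endoplasmic reticulum, Usp11, X-linked and tied to BRCA2, and Usp30, of the outer mitochondrial membrane, with log2 fold changes between -2.46 and -3.44.

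The levels of the leading genes in the conditions that did not choose the classes follow in CPM. Usp16 was at 340.1 and 386 in early G&N-L, 588 and 661 in late G&N, 742 and 517 in late G&N-L, 644 and 489.6 with Lac-CoA and 680.2 and 589.6 in H3K18R. Usp1 was at 164 and 109 in early G&N-L, 394 and 285 in late G&N, 287 and 213 in late G&N-L, 297 and 298 with Lac-CoA and 419 and 386 in H3K18R. Both were higher in all 10 late libraries than in all 4 early ones. Usp32 was at 17.5 and 4.99 in early G&N-L, 86.0 and 72.1 in late G&N, 58.2 and 52.7 in late G&N-L, 77.1 and 103 with Lac-CoA and 153 and 120.0 in H3K18R. Usp50 was at 1.74 and 0.272 in early G&N-L, 57.8 and 125 in late G&N, 51.6 and 33.5 in late G&N-L, 57.5 and 62.9 with Lac-CoA and 113 and 101 in H3K18R. These 2 separated the stages as well, with the late G&N-L libraries the lowest late ones. Usp39 was at 25.5 and 37.8 in early G&N-L, 51.3 and 39.2 in late G&N, 21.6 and 18.5 in late G&N-L, 27.7 and 44.3 with Lac-CoA and 96.7 and 67.2 in H3K18R. Usp22 was at 2.29 and 0.907 in early G&N-L, 23.8 and 61.0 in late G&N, 6.56 and 5.66 in late G&N-L, 30.3 and 48.3 with Lac-CoA and 147 and 26.7 in H3K18R. Usp29 was at 21.7 and 8.07 in early G&N-L, 40.6 and 36.7 in late G&N, 15.7 and 11.8 in late G&N-L, 18.1 and 33.9 with Lac-CoA and 67.2 and 33.0 in H3K18R. Usp39, Usp22 and Usp29 were lowest, among late libraries, in G&N-L.

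The leading falling genes follow on the same CPM scale. Usp15 was at 935 and 848 in early G&N-L, 816 and 925 in late G&N, 863 and 919 in late G&N-L, 688 and 697 with Lac-CoA and 336 and 525 in H3K18R, so it was low in H3K18R and WT and near its early level in late G&N and G&N-L. Usp46 was at 361 and 337 in early G&N-L, 118 and 112 in late G&N, 122 and 146 in late G&N-L, 101 and 89.0 with Lac-CoA and 46.1 and 100.3 in H3K18R. Usp2 was at 183 and 194 in early G&N-L, 73.7 and 78.6 in late G&N, 117 and 141 in late G&N-L, 75.8 and 75.2 with Lac-CoA and 24.97 and 69.2 in H3K18R. Both were below all 4 early libraries in every late library. Usp53 was at 127 and 100.4 in early G&N-L, 179 and 153 in late G&N, 128 and 127 in late G&N-L, 126 and 125 with Lac-CoA and 84.2 and 119 in H3K18R. Usp28 was at 176 and 168 in early G&N-L, 113 and 95.9 in late G&N, 93.6 and 96.7 in late G&N-L, 109 and 146 with Lac-CoA and 99.8 and 119 in H3K18R. Usp14 was at 164 and 152 in early G&N-L, 43.3 and 104 in late G&N, 53.2 and 71.2 in late G&N-L, 37.6 and 54.02 with Lac-CoA and 52.0 and 106 in H3K18R. Usp53 overlapped between the stages, while Usp28 and Usp14 were lower in every late library than in every early one.

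The remaining genes that met the volcano criterion, an unadjusted p below 0.05 with a change of more than 0.5 on the log2 scale, in some comparison of treatments, and Usp37, had these levels in CPM. Usp38 was at 46.7 and 66.5 in early G&N, 62.4 and 35.1 in early G&N-L, 98.9 and 68.5 in late G&N, 36.3 and 40.3 in late G&N-L, 60.3 and 59.5 with Lac-CoA, 76.4 and 85.8 in H3K18R and 98.0 and 93.3 in WT. Usp8 was at 49.0 and 49.4 in early G&N, 41.3 and 50.7 in early G&N-L, 73.5 and 76.3 in late G&N, 89.0 and 80.8 in late G&N-L, 56.5 and 58.3 with Lac-CoA, 29.9 and 61.7 in H3K18R and 38.2 and 31.6 in WT. Usp11 was at 38.6 and 19.6 in early G&N, 27.0 and 28.4 in early G&N-L, 14.8 and 15.0 in late G&N, 13.7 and 7.57 in late G&N-L, 3.89 and 6.39 with Lac-CoA, 2.97 and 12.8 in H3K18R and 2.13 and 3.36 in WT. Usp11 was lower in every late library than in every early one, and Usp38 and Usp8 overlapped between the stages. Usp33 was at 24.7 and 15.9 in early G&N, 19.2 and 23.0 in early G&N-L, 30.4 and 37.0 in late G&N, 16.5 and 11.4 in late G&N-L, 25.2 and 10.6 with Lac-CoA, 43.3 and 13.9 in H3K18R and 51.5 and 72.6 in WT. Usp12 was at 6.01 and 5.73 in early G&N, 1.97 and 2.81 in early G&N-L, 7.31 and 7.23 in late G&N, 6.56 and 5.04 in late G&N-L, 8.77 and 12.1 with Lac-CoA, 15.1 and 17.3 in H3K18R and 5.18 and 7.53 in WT. Usp20 was at 0.569 and 1.46 in early G&N, 3.12 and 0 in early G&N-L, 8.92 and 2.14 in late G&N, 3.17 and 1.15 in late G&N-L, 5.61 and 1.22 with Lac-CoA, 1.29 and 1.45 in H3K18R and 6.79 and 6.08 in WT. Usp20 and Usp12 were low throughout. Usp44 was at 1.30 and 1.12 in early G&N, 1.54 and 0.181 in early G&N-L, 0.657 and 5.37 in late G&N, 2.97 and 3.52 in late G&N-L, 0 and 0 with Lac-CoA, 2.97 and 3.03 in H3K18R and 6.70 and 2.84 in WT. Usp54 was at 21.8 and 14.4 in early G&N, 19.4 and 13.7 in early G&N-L, 34.4 and 24.7 in late G&N, 14.9 and 6.24 in late G&N-L, 10.7 and 16.3 with Lac-CoA, 35.9 and 35.7 in H3K18R and 39.2 and 41.7 in WT. Usp9x was at 255 and 321 in early G&N, 363 and 238 in early G&N-L, 305 and 272 in late G&N, 397 and 414 in late G&N-L, 305 and 339 with Lac-CoA, 208 and 254 in H3K18R and 159.6 and 173 in WT. Both overlapped between the stages, with the late G&N-L libraries the highest of the late ones in Usp9x. Usp37 was at 337 and 281 in early G&N-L, 398 and 466 in late G&N, 403 and 319.7 in late G&N-L, 346 and 354 with Lac-CoA and 402 and 352 in H3K18R.

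Close to the threshold, Usp30 entered the falling class at an adjusted p of 0.0399 and Usp33 the rising class at 0.0325, while Usp31 (log2 fold change 1.17, adjusted p = 0.0618), Usp54 (1.11, 0.0624) and Usp4 (-1.02, 0.0643) stayed just outside in edgeR's fit. The class of 30 also held highly expressed genes with little change, among them Usp7, which acts on Mdm2 and Dnmt1, at 262 and 245 against 284 and 312 CPM.

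**Figure D2:**
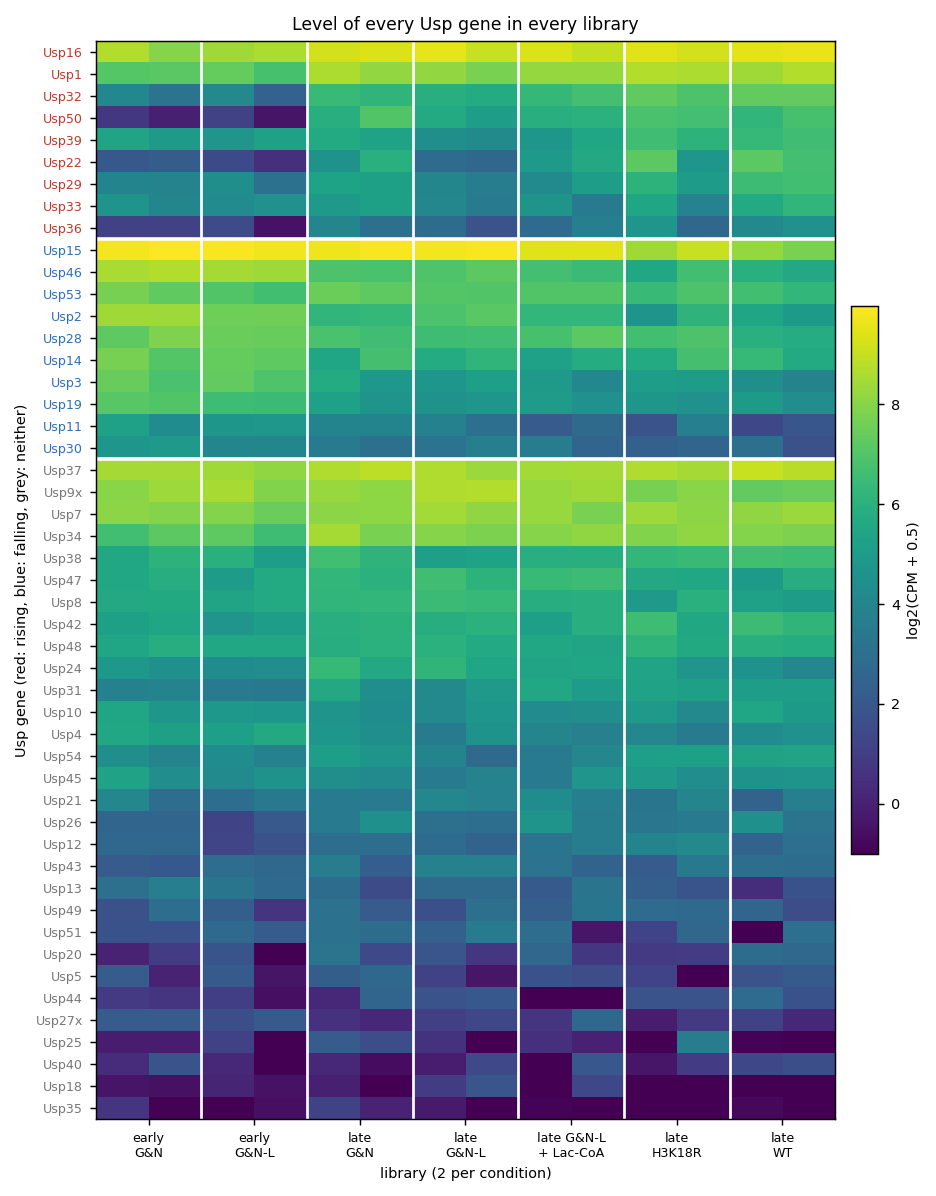
Log2(CPM + 0.5) of each of the 49 Usp genes (rows, ordered by class and then by mean CPM) in each of the 14 libraries (columns, 2 per condition). The 9 rising genes brighten from the 4 early libraries to WT, the 10 falling genes darken, and the lowest rows hold genes with 0 counts in some libraries.

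Summed over the class, the 9 rising genes took 472 to 646 CPM in the 4 early libraries, 1288 and 1325 CPM in late G&N, 1206 and 867 CPM in late G&N-L, 1184 and 1103 CPM with Lac-CoA, 1746 and 1344 CPM in H3K18R, and 1690 and 1835 CPM in WT. The sum is dominated by Usp16 and Usp1, so the median of the log2 CPM of the 9 genes was taken too, and it was 3.02 to 4.27 in early libraries, 5.68 and 5.93 in late G&N, 4.43 and 4.21 in late G&N-L, 4.92 or higher with Lac-CoA, 6.83 and 6.07 in H3K18R and 6.52 and 6.66 in WT. On that scale both late G&N-L libraries lay below every other late library. The 10 falling genes summed to 2052 to 2529 CPM in early libraries, 1460 and 1544 CPM in late G&N, 1450 and 1583 CPM in late G&N-L, 1217 and 1239 CPM with Lac-CoA, 712 and 1112 CPM in H3K18R, and 708 and 517 CPM in WT. As with the oocyte markers, the sum was lowest in WT and next lowest in H3K18R, and the part of stored oocyte RNA in it was not tested.

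The 150 bases just before the start of the canonical transcript of each gene were read from GRCm39 to show what lies upstream of members that moved together. The 3 rising and 3 falling genes with the largest class change whose window holds no annotated UTR follow, each written in the direction of the gene, with capitals for any match to 4 motifs. Usp50 is at chr2:126625404-126625553, Usp22 at chr11:61065887-61066036, Usp32 at chr11:85030865-85031014, Usp46 at chr5:74229119-74229268 and Usp15 at chr10:123032901-123033050, all on the minus strand, and Usp11 is at chrX:20569983-20570132 on the plus strand.
Usp50: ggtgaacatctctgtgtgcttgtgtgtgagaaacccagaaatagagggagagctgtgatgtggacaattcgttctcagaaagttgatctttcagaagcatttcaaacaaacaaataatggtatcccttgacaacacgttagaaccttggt
Usp22: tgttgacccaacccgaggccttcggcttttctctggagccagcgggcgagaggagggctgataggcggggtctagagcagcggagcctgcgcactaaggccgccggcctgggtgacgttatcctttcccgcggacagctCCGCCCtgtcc
Usp32: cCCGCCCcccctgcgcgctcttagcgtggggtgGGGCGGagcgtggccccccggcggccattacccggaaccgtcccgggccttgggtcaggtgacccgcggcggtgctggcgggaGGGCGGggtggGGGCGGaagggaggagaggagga
Usp11: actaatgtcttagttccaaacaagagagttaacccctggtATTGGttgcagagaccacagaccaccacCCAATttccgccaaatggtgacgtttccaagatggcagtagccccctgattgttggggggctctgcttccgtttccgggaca
Usp46: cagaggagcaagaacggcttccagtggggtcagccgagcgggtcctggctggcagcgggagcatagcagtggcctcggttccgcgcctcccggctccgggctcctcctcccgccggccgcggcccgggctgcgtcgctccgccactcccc
Usp15: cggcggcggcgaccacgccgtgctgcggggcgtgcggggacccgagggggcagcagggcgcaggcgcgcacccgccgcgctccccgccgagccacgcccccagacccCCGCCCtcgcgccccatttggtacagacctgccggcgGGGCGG
The motifs, searched on both strands, were the GC box GGGCGG, the CCAAT box CCAAT, the nuclear receptor half-site AGGTCA and the homeobox motif TAATCC, and no motif contains another. Usp32 held 4 GC boxes, Usp15 held 2, Usp22 held 1, and Usp11 held 2 CCAAT boxes, while no match lay in the windows of Usp50 and Usp46. No motif was in every window of either class. Over the family, 31 of 49 windows held a GC box, 3 of 9 among rising and 6 of 10 among falling genes, beside 32.6% of the 21770 windows of all protein-coding genes. The CCAAT box was in 7 of 49 windows against 27.7% of all windows, the half-site in 1, that of Usp16, against 7.9%, and TAATCC in 3, those of Usp10, Usp20 and Usp48, against 4.0%. GC made up 41.3% of the Usp50 window, close to the lowest of the family at 40.7%, and 86.0% of that of Usp7, the highest. These matches are letters in a window and no measure of binding.

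Late and early 2-cell embryos were then compared within each medium, to ask how the family moved with stage when lactate was present or absent. With lactate, in late against early G&N embryos, 7 of 49 Usp genes had an adjusted p under 0.05 in edgeR's quasi-likelihood test, or 14.3% beside 13.7% of all genes tested, with 3 higher and 4 lower beside 8.18% and 5.47%. Usp50, Usp22 and Usp32 rose and Usp2, Usp46, Usp19 and Usp3 fell, all in the direction of their class, with which this comparison shares the early G&N libraries. Usp50 had 57.8 and 125 CPM in late G&N and rose by 6.69 on the log2 scale (SE 0.70, adjusted p = 0.00864). Usp22 had 23.8 and 61.0 CPM and rose by 3.36 (SE 0.61, adjusted p = 0.0269). Usp2 had 73.7 and 78.6 CPM and fell by 2.20 (SE 0.25, adjusted p = 0.00997). In all 3 the late and early libraries lay apart, as in 64.6% of all genes tested. Several class members did not pass in G&N, such as Usp15 at 816 and 925 CPM (log2 fold change -0.18, SE 0.26) and Usp39 at 51.3 and 39.2 CPM (0.25, SE 0.33). Leaving out either late G&N library left 1 call.

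Without lactate, in late against early G&N-L embryos, which share no library with the class choice, 6 of 48 Usp genes had an adjusted p under 0.05, or 12.5% beside 11.8% of all genes tested, with 1 higher and 5 lower beside 5.97% and 5.87%. Usp19, Usp3, Usp46, Usp14 and Usp28 fell, with log2 fold changes of -1.91, -2.23, -1.44, -1.40 and -0.92, and all 5 belonged to the falling class. Only Usp50 rose, from 1.74 and 0.272 to 51.6 and 33.5 CPM (log2 fold change 5.31, SE 0.89, adjusted p = 0.0265 in edgeR's test). The 9 rising genes had a median log2 fold change of 0.82 and 6 of them were higher. For the 3150 genes of the rising class tested the median was 2.23 and 2793 were higher. The 10 falling genes had a median of -1.16 and 9 were lower, beside -0.81 and 81.6% lower for the 3324 genes of the falling class tested. Usp22 was at 2.29 and 0.907 CPM in early and 6.56 and 5.66 CPM in late G&N-L (log2 fold change 1.88, SE 0.81, adjusted p = 0.188), and Usp29 at 21.7 and 8.07 and 15.7 and 11.8 CPM (-0.15, SE 0.56). For Usp22 the stages did not overlap, and for Usp29 they did, beside 62.5% of all genes tested without overlap. DESeq2 on the same genes called 16 members with lactate, beside 30.6% of all genes, and 18 without, beside 28% of all genes, so the count of calls depends on the tool. The edgeR count without lactate was 0 without the first and 3 without the second late G&N-L library.

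By role, the 12 proteases that act on histones H2A or H2B included 1 that rose with stage in G&N at an adjusted p under 0.05 in edgeR's test, Usp22, and 2 that fell, Usp46 and Usp3, beside 8.18% higher and 5.47% lower of all genes. Of the 7 tied to the endosome, the endoplasmic reticulum, the Golgi or mitochondria, Usp32 rose and Usp19 fell. Of the 5 tied to p53 and Mdm2, Usp2 fell. The looser volcano criterion was met by 3 higher and 2 lower of the 12 histone proteases, by 1 higher and 2 lower of the 7 and by 1 higher and 1 lower of the 5. By the same criterion 2 of the 8 genes of genome maintenance and the cell cycle, 1 of the 5 of Wnt and TGF-beta signalling, 1 of the 3 of the proteasome and ubiquitin recycling, 0 of the 3 of splicing and 1 of the 5 X-linked genes passed in edgeR's test, beside 34.4% of all genes.

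Removal of lactate at the late 2-cell stage was tested in late G&N-L against late G&N embryos. Since no gene of the 19481 tested had an adjusted p under 0.05 in edgeR's test, members were counted by the volcano criterion, which asks for an unadjusted p below 0.05 and a change of more than 0.5 on the log2 scale. By this criterion 8 of 49 Usp genes differed, 6 lower and 2 higher, or 16.3% beside 11.9% of all genes, with 12.2% lower beside 7.63% and 4.08% higher beside 4.23%. The same 8 had an unadjusted p under 0.05, and DESeq2 gave 4 members an adjusted p under 0.05, beside 4.7% of all genes. The 6 lower genes were Usp22, Usp29, Usp38, Usp39, Usp33 and Usp54, and the 2 higher ones were Usp2 and Usp9x.

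Usp22 was at 23.8 and 61.0 CPM with lactate and 6.56 and 5.66 CPM without, 6.63-fold lower (log2 fold change -2.73, SE 0.54; adjusted p = 0.313 by edgeR and 0.000158 by DESeq2). For this gene at chr11:61042611-61065886, whose exons overlap no other annotated gene, neither library without lactate reached the lower of those with lactate, and the latter pair also lay well apart from each other. Leaving out each of the 4 libraries in turn kept its log2 fold change between -3.23 and -1.88. Usp29, at chr7:6733577-6970218, was at 40.6 and 36.7 CPM with and 15.7 and 11.8 CPM without lactate, 2.72-fold lower (log2 fold change -1.44, SE 0.35; adjusted p = 0.322 by edgeR and 0.0228 by DESeq2). Its exons overlap those of Zim3 on the opposite strand, so reads of the pair may be mixed. Usp38 was at 98.9 and 68.5 CPM with and 36.3 and 40.3 CPM without lactate (log2 fold change -1.09, SE 0.30; adjusted p = 0.332 by edgeR and 0.046 by DESeq2), and part of its exons overlap a long non-coding RNA on the opposite strand. Usp2 went the other way, from 73.7 and 78.6 CPM with to 117 and 141 CPM without lactate, 1.75-fold higher (log2 fold change 0.80, SE 0.22; adjusted p = 0.332 by edgeR and 0.029 by DESeq2). In each of these 4 genes the media did not overlap, as in 43.5% of all genes tested. Part of the exons of Usp2 overlap the protein-coding Gm49380 and a long non-coding RNA, both on the opposite strand.

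The other genes past the volcano criterion were Usp39 (log2 fold change -1.13, SE 0.32), Usp33 (-1.22, SE 0.37), Usp54 (-1.44, SE 0.55) and Usp9x, an X-linked protease of TGF-beta signalling (0.53, SE 0.19). Of the 8 genes, Usp22, Usp29, Usp39 and Usp33 belonged to the rising class and Usp2 to the falling class, and none of the 4 libraries compared had chosen the classes. The number past the criterion was 3 without the second G&N-L library and 5 without the second G&N library.

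**Figure D3:**
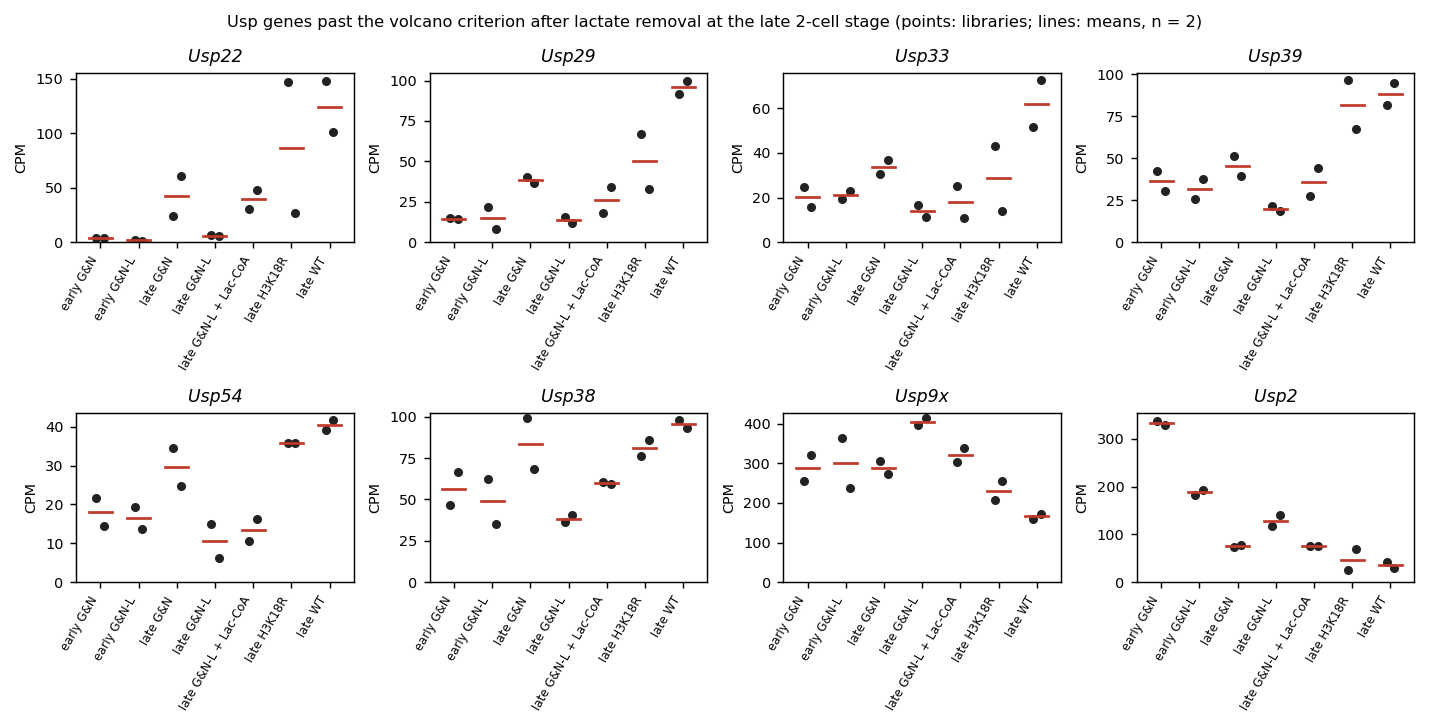
CPM (linear axes from 0, 1 panel per gene) of the 8 Usp genes past the volcano criterion in late G&N-L against late G&N embryos, in all 7 conditions, with points for libraries and lines for the means of 2. Usp22, at 23.8 and 61.0 CPM in late G&N and 6.56 and 5.66 CPM in late G&N-L, shows the largest fold between those media, and Usp2 and Usp9x stand higher in late G&N-L.

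The 9 rising genes had a median of -1.13 on the log2 scale after lactate removal and 8 were lower, with Usp16 the exception at 0.06 (SE 0.23). Over all 3541 genes of the rising class tested the median was -0.65 and 76.2% were lower. In 7 of the 9 the G&N-L libraries lay wholly below the G&N libraries, as they did in 1840 of those 3541 genes and in 24.9% of all genes tested. Leaving out 1 library moved the median of the 9 genes to between -1.41 and -0.75. The 10 falling genes had a median of -0.13 with 6 lower and 4 higher, and their median turned to 0.09 without the first G&N library. Over the 3205 genes of the falling class tested the median was 0.29 and 29.9% were lower. The late 2-cell markers summed to 2627 and 2960 CPM in late G&N and 2471 and 2971 CPM in late G&N-L, so the sums overlapped between the media. Gene by gene, 4 of these 10 markers were lower and 4 higher in G&N-L without overlap, among the lower Dppa4, at 215 and 338 CPM with and 78.1 and 72.2 CPM without lactate. The sum of the oocyte markers was higher in G&N-L, led by Btg4 at 7196 and 8628 CPM with and 11017 and 11752 CPM without lactate, while 3 of the 10 were higher and 2 lower without overlap, among the lower Nlrp5, at 131 and 196 CPM with and 113 and 93.4 CPM without lactate. The part of stage or stored RNA in the Usp differences was not tested.

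At the early 2-cell stage, 2 of 48 Usp genes passed the volcano criterion in G&N-L against G&N, or 4.17% beside 4.5% of all genes. With 0 adjusted calls among them by edgeR or by DESeq2, which called 0.213% of all genes, these 2 were also the only members with an unadjusted p under 0.05. Usp2 was at 338 and 329 CPM with and 183 and 194 CPM without lactate, 1.63-fold lower (log2 fold change -0.70, SE 0.20). Usp53 was at 207 and 153 CPM with and 127 and 100.4 CPM without lactate (log2 fold change -0.53, SE 0.21). The media did not overlap for either gene, nor for 32.7% of all genes tested. Both belong to the falling class, which these G&N libraries helped to choose, and by the treatment labels the groups would differ in NMN and not in lactate. The count was 1 without the first G&N-L or the first G&N library and 0 without the second G&N-L library.

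Whether the effect of lactate removal differed between stages was asked of the 8 G&N and G&N-L libraries, through the interaction term. By the volcano criterion 3 of 49 Usp genes passed, or 6.12% beside 7.55% of all genes, and these were also the members with an unadjusted p under 0.05. Adjusted calls numbered 0 by edgeR and 1 by DESeq2, which was Usp2, beside 1.01% of all genes. Usp2 was lower without lactate in early and higher in late embryos, with an interaction of 1.54 on the log2 scale (SE 0.29; adjusted p = 0.494 by edgeR and 0.00208 by DESeq2). Usp33, at 24.7 and 15.9 CPM in early G&N, 19.2 and 23.0 in early G&N-L, 30.4 and 37.0 in late G&N and 16.5 and 11.4 in late G&N-L, had an interaction of -1.39 (SE 0.53), and Usp29 one of -1.52 (SE 0.66). All 9 rising genes had a negative interaction, with a median of -1.04. Of the 3593 rising genes tested 75.2% had a negative one, with a median of -0.86. The early G&N libraries chose the class and enter the interaction, so these signs are not independent of the choice, and the doubt about NMN and lactate in the early groups holds here too. The number past the criterion was 1 without the second late G&N-L or the second late G&N library and 5 without the first late G&N-L library.

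Injection of Lac-CoA, the activated form of lactate, was compared with G&N-L alone to ask which members changed when it was supplied without lactate. No injection is described for the G&N-L or G&N embryos. An effect of Lac-CoA and one of the injection thus cannot be told apart, here or against late G&N. By the volcano criterion 6 of 48 Usp genes differed, 2 higher beside 6.89% of all genes and 4 lower beside 6.29%, or 12.5% in all beside 13.2%. Adjusted calls numbered 0 by edgeR and 3 by DESeq2, which called 6.03% of all genes, and 7 members had an unadjusted p under 0.05, beside 13.3%. Usp22 was at 6.56 and 5.66 CPM in G&N-L and 30.3 and 48.3 CPM with Lac-CoA, 6.19-fold higher (log2 fold change 2.63, SE 0.41; adjusted p = 0.294 by edgeR and 5.16e-06 by DESeq2). Usp2 was at 117 and 141 CPM in G&N-L and 75.8 and 75.2 CPM with Lac-CoA (log2 fold change -0.82, SE 0.21). Usp8, a protease of endosomal sorting, was at 89.0 and 80.8 CPM and 56.5 and 58.3 CPM (log2 fold change -0.61, SE 0.21). For these 3 genes the libraries of the groups lay apart, as in 46.8% of all genes tested. Usp44, a histone H2B protease of the spindle checkpoint, had 114 and 135 counts in G&N-L and 0 counts in both Lac-CoA libraries. With the latter set to the floor of 3 counts per library, it was 46.9-fold lower. That floor covers counting error only, so this fold is no lower bound on the difference between the groups. The exons of Usp44 overlap those of Metap2. Usp32 was higher (0.65, SE 0.24) and Usp46 lower (-0.54, SE 0.21) on the log2 scale.

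Over the 9 rising genes the median log2 fold change with Lac-CoA was 0.65 and 8 were higher. Over the 3531 rising genes tested it was 0.67 and 2821 were higher. For the 10 falling genes it was -0.43 and 8 were lower, beside -0.55 and 80.5% lower over the 3186 falling genes tested. Usp29 was at 18.1 and 33.9 CPM with Lac-CoA (0.87, SE 0.45, unadjusted p = 0.113 in edgeR's test). The late 2-cell markers summed to 4157 and 4453 CPM with Lac-CoA, above both G&N-L libraries, and the sums of the oocyte markers lay below them, and their part in these differences was not tested. Gene by gene, 7 of the 10 late 2-cell markers were higher with Lac-CoA and 3 lower. Among the higher was Eif1ad8, at 525 and 599 CPM in G&N-L and 1222 and 1746 CPM with Lac-CoA. The G&N-L libraries are shared with the comparison of late media, so the opposite signs of Usp22 and Usp2 in the 2 comparisons rest in part on the same values. The number past the criterion was 3 without the first and 2 without the second G&N-L library.

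Against late G&N itself, 2 of 49 Usp genes passed the volcano criterion with Lac-CoA, or 4.08% beside 8.51% of all genes, and these were also the members with an unadjusted p under 0.05. Adjusted calls numbered 0 by edgeR and 1 by DESeq2, beside 2.4% of all genes. Usp44 had 24 and 234 counts in late G&N and was 43.6-fold lower with Lac-CoA set to the floor, a fold that allows for counting error only, and its G&N libraries lay far apart. Usp11 was at 14.8 and 15.0 CPM in G&N and 3.89 and 6.39 CPM with Lac-CoA (log2 fold change -1.45, SE 0.52). Usp22 overlapped between the groups, at 23.8 and 61.0 against 30.3 and 48.3 CPM (SE 0.51 on the log2 scale, unadjusted p = 0.994 in edgeR's test), and so did Usp2, at 73.7 and 78.6 against 75.8 and 75.2 CPM. The medians were -0.19 for the 9 rising and -0.21 for the 10 falling genes. The number past the criterion was 1 without the second G&N library and 4 without the first Lac-CoA library.

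The libraries labelled H3K18R were compared with those labelled WT, a comparison made to ask about lysine 18 of H3. With H3c1 at 4 and 3 counts in the libraries labelled WT, an effect of the mutation and one of injected H3 mRNA cannot be told apart here. By the volcano criterion 3 of 46 Usp genes differed, or 6.52% beside 6.44% of all genes, and these 3 were the members with an unadjusted p under 0.05, with 0 adjusted calls by edgeR or by DESeq2, which called 0.667% of all genes. Usp28 was at 61.6 and 54.5 CPM in WT and 99.8 and 119 CPM in H3K18R, 1.89-fold higher (log2 fold change 0.92, SE 0.29). Usp12, which works with Wdr48, was at 5.18 and 7.53 CPM in WT and 15.1 and 17.3 CPM in H3K18R (1.35, SE 0.51). Usp20 was lower, at 6.79 and 6.08 CPM in WT and 1.29 and 1.45 CPM in H3K18R (-2.22, SE 0.81). The groups did not overlap in any of the 3, nor in 39% of all genes tested.

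Usp29 was at 67.2 and 33.0 CPM in H3K18R, below both WT libraries at 91.9 and 99.9 CPM, with a log2 fold change of -0.93 (SE 0.42, unadjusted p = 0.0708 in edgeR's test). Usp22 was at 147 and 26.7 CPM in H3K18R and 148 and 101 CPM in WT, so the H3K18R libraries spanned both sides of a WT library. The median log2 fold change was -0.23 over the 9 rising genes, with 7 lower, beside -0.43 and 78.1% lower over the 3854 rising genes tested. It was 0.39 over the 10 falling genes, with 8 higher, beside 0.61 and 2215 higher over the 2648 falling genes tested. WT libraries chose the classes, so these signs are not independent of the choice. The H3K18R libraries differed from each other, with 3953 and 8144 CPM of oocyte markers, and the number past the criterion was 11 without the first of them and 1 without either WT library.

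**Figure D4:**
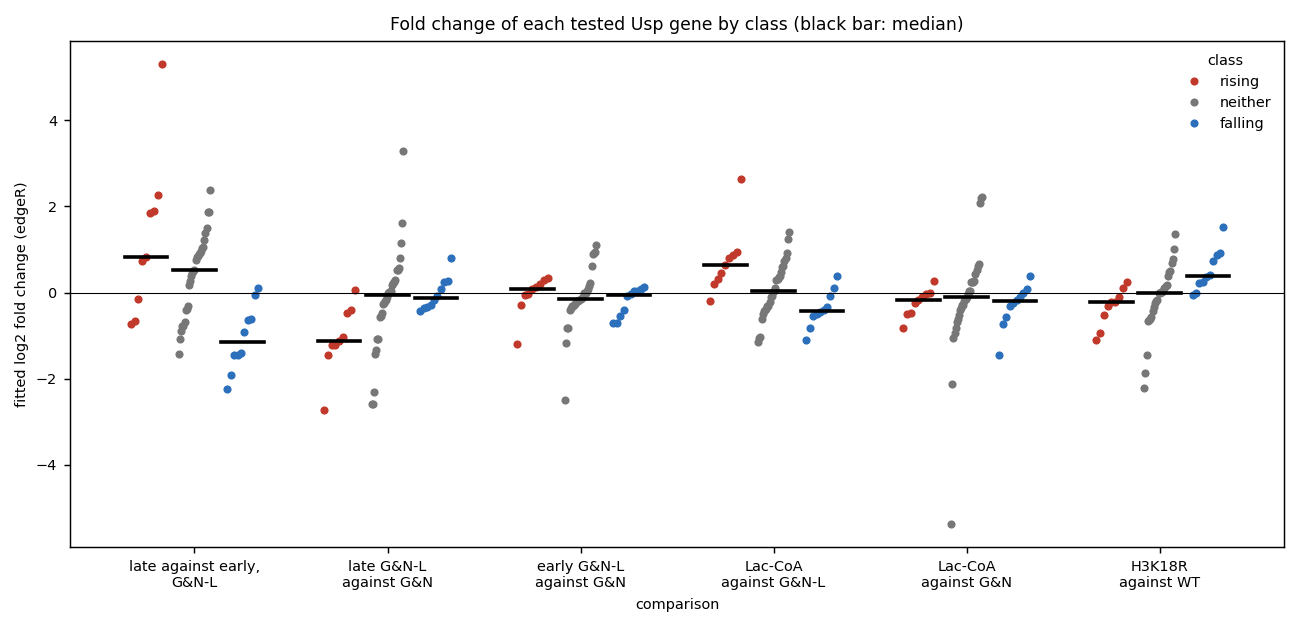
Fitted log2 fold change (edgeR) of each Usp gene tested, by class and comparison, with a black bar for the median. The rising genes centre on -1.13 in late G&N-L against late G&N and on 0.65 with Lac-CoA against G&N-L, and Usp44 is left out of the Lac-CoA comparisons because its counts there were 0.

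Genes that work with the family were counted in the same fits. Of 22 partners and substrates, 7 fell and 0 rose with stage in G&N at an adjusted p under 0.05 in edgeR's test, beside 5.47% lower and 8.18% higher of all genes. The 7 were led by Psmd1, a proteasome subunit (log2 fold change -1.95), G3bp2, of the family that binds Usp10 (-1.80), Dnmt1, the maintenance DNA methyltransferase (-1.95), and Eny2, a subunit of the Usp22 module of SAGA (-1.74). Eny2 thus fell while Usp22 rose, but by direction 15 of the 22 were lower and 7 higher. Among the higher, Atxn7l3 had 0 and 0 counts in early G&N and 194 and 20 in late G&N. G3bp1 had 568 and 152 counts in early G&N and 1219 and 1149 in late G&N. Of 44 other deubiquitinases, 6 rose and 1 fell, beside the same shares of all genes, among them Usp17lb (5.04) and Usp17lc (4.27), whose near-identical copies make their counts uncertain, Atxn3 (1.90) and Zup1 (-3.03). Among genes for ubiquitin and its activating enzymes, Rps27a, which encodes ubiquitin fused to a ribosomal protein, rose (5.25) and Uba3 fell (-1.65), while Uba6 had an adjusted p of 0.0766.

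In late G&N-L against late G&N the volcano criterion was met by 2 lower and 1 higher of 21 partners and by 6 lower and 3 higher of 43 other deubiquitinases, beside the 11.9% of all genes given above. Of the 7 genes tested for ubiquitin and its activating enzymes, 3 met it and were lower. Among them were Uba6 (-1.46, SE 0.39) and Rps27a (-0.999, SE 0.28), given as log2 fold changes. With Lac-CoA against G&N-L it was met by 3 lower and 2 higher of 21 partners, by 2 lower and 8 higher of 44 other deubiquitinases and by Rps27a, which was higher (0.78, SE 0.26). Of all genes 6.29% met it as lower and 6.89% as higher there, or 13.2% in all. Rps27a was thus among the genes lower without lactate and higher with Lac-CoA, in comparisons that share the G&N-L libraries.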

How the data were processed

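RNA-seq counts of 2-cell mouse embryos were used as the authors deposited them, as raw counts per gene without normalization. Per the paper's methods, the authors used FastQC and Trim Galore on the reads, HISAT2 for alignment to mm39, featureCounts for counting and DESeq2 for their tests. Versions, the annotation release and the strand setting of the counting are not given in the sources used here, so overlapping genes on opposite strands cannot be separated, and 32 of the 49 Usp genes share exon sequence with another gene. The count table held 0 further columns of per-sample values.

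Groups were taken from the sample titles. The treatment labels of the early libraries name Gne140 alone for G&N and Gne140 with NMN, without a word on lactate, for G&N-L. The columns headed K18A were matched to the samples titled H3K18R. The protocol names 3 replicates and 2 libraries per condition were analysed. Nothing in the labels says that these came from separate collections, so p-values measure the spread between these libraries only. No pair of libraries was a duplicate, since the chi-square between replicates, divided by its degrees of freedom, was 51.9 to 216.

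The fits used edgeR 4.0.16 and DESeq2 1.42.0 in R 4.3.3, and annotation and figures with Python 3.11.15, pandas 2.3.3 and matplotlib 3.10.9. Each comparison was fitted over all genes on its own libraries, with edgeR's default filter, TMM normalization and the two-sided quasi-likelihood test, and p-values were adjusted by Benjamini-Hochberg over all genes tested. With 2 libraries against 2, an exact permutation test cannot go below a two-sided p of 0.333 and was not used. Levels are CPM on TMM-normalized sizes over all 14 libraries, and the log2 levels of a class use a prior count of 2. Fitted fold changes use a prior count of 0.125. The fits were tested on simulated data.

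The members and lists were chosen with earlier results of these data known. Values in every library are given for Usp29, for the 6 genes with the highest mean CPM in each class, for up to 4 genes with the smallest p past the volcano criterion in each comparison of treatments, and for the 3 genes with the highest level per kilobase of exon. Alternatives were DESeq2, DESeq2's size factors, library totals, no filter, a minimum of 10 counts per library, a joint fit of the 14 libraries, a block for the replicate number, other class rules and the omission of each library in turn. Gene models and sequence came from GENCODE mouse release M39 on GRCm39. Some results on genes outside the family are not reported here.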

Additional observations from a re-analysis of the deposited data

Results flagged for a closer look

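In the test of whether lactate removal acted differently at the 2 stages, 3 Usp genes had an unadjusted interaction p under 0.05 in edgeR's quasi-likelihood fit. None of them passed Benjamini-Hochberg adjustment over all genes. By the treatment labels the early groups would differ in NMN and not in lactate, so what the interaction compares is in doubt. Usp2 had an interaction of 1.54 on the log2 scale (unadjusted p = 0.00071, adjusted p = 0.494), with both early G&N-L libraries below early G&N and both late G&N-L libraries above late G&N. Usp33 had an interaction of -1.39 (unadjusted p = 0.0305, adjusted p = 0.65). Usp29 had an interaction of -1.52 (unadjusted p = 0.048, adjusted p = 0.65). At 3 of 49 members, the share of 6.12% lay beside 7.55% of all genes tested.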

How the results depend on the processing

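Of the values of named genes in each comparison under each alternative, 303 kept direction and side of the threshold, 113 kept direction and no longer passed, and 0 changed sign. Counts of Usp genes moved more, and the cause was not tested. The 9 rising genes became 15 with DESeq2, 14 with library totals, 15 with at least 10 counts in every library, 5 with a class limit of 2 on the log2 scale, 3 with classes from late G&N, and 4 to 9 with 1 library left out. The 10 falling genes became 6 with a class limit of 2, 4 with classes from late G&N, and 5 to 8 with 1 library left out. The 7 stage calls with lactate became 16 with DESeq2, 14 without a filter, 15 with at least 10 counts, 11 with all 14 libraries in one fit, and 1 to 7 with 1 library left out. The 6 without lactate became 18 with DESeq2, 13 with library totals, 12 with at least 10 counts, and 0 to 5 with 1 library left out.

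For late lactate removal, the 8 genes past the volcano criterion became 3 to 9 with 1 library left out, and adjusted calls went from 0 to 4 with DESeq2, 1 without a filter and 1 with at least 10 counts. The median of the rising genes lay between -1.41 and -0.75 and that of the falling genes between -0.0838 and 0.0927, the last without the first late G&N library. For early removal, the 2 genes became 1 with library totals and 0 to 2 with 1 library left out. For the interaction, the 3 genes became 1 with all 14 libraries in one fit and 1 to 5 with 1 left out, and adjusted calls went from 0 to 1 with DESeq2 and 1 without a filter. For Lac-CoA against G&N-L, the 6 genes became 3 with all 14 libraries in one fit and 2 to 7 with 1 left out, and adjusted calls 3 with DESeq2. Against G&N, the 2 genes became 4 with DESeq2, 4 with at least 10 counts and 1 to 4 with 1 left out, and adjusted calls 1 with DESeq2. For H3K18R against WT, the 3 genes became 5 with DESeq2, 5 without a filter, 5 with all 14 libraries in one fit and 1 to 11 with 1 left out, and adjusted calls 1 without a filter.

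The replicate numbers did not pair the libraries, since the correlation of replicate differences between conditions ran from -0.206 to 0.106. With the replicate number as a block, the count past the criterion was 1 for early removal, 3 for Lac-CoA against G&N-L and 0 for H3K18R against WT, where the numbers, at r = -0.182, were also crossed after the data were seen, which gave 4. The block moved no other count by over 1.5 times. With 2 libraries per condition and a floor of 0.0589 to 0.144 CPM, differences in low genes, such as Usp18 and Usp35, could be missed. Usp18 had 17 and 0 counts in late G&N and 53 and 121 in late G&N-L, without passing the volcano criterion.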
